A study of Homo sapiens with 6 samples.

Results

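The nascent transcription of unperturbed HCT116 cells was read from the 2 cultures that received only the vehicle. HCT116 is an established human colorectal carcinoma cell line. Both cultures were given 0.01% DMSO for 4 h and were labelled with 2 mM bromouridine for the last 30 min, and each gave 1 library. They are 2 of the 6 libraries of a study of glutathione S-transferase omega 1 (GSTO1), in which the other cultures received GSTO1 siRNA or a small molecule, and those were not used here. The labels number the cultures 1 and 2 but do not say whether they were grown on separate days, so the spread between them may be partly technical. Genes were taken on their own (sense) strand and kept where they spanned more than 300 bp, which left 21471 of 22984 gene rows. The questions were which genes and gene classes these cells transcribed most and which were silent in both cultures. With 1 group of 2 cultures no test between groups exists, and every value below is a description.

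Bru-seq captures RNA that has taken up bromouridine during a short pulse. The reads therefore cover introns as well as exons, and the read density over a gene follows how much of it is being transcribed rather than how much mature RNA has accumulated. Stable messages of a gene that is no longer transcribed contribute little, and long genes collect many reads because their introns are counted. Colorectal carcinoma cells are known for Wnt pathway activity, rapid division and a variable loss of the differentiated intestinal program.

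The sense reads over these genes summed to 18096229 in culture 1 and 32886035 in culture 2. Levels are given as RPKM, reads per kilobase of the gene scaled to the size of the library, where the length is the part of the gene shared with no other annotated gene (its own length). Across the 15690 genes with reads in both cultures, the log2 RPKM values had a Pearson r of 0.978 and the RPKM values a Spearman rho of 0.983. This is a description across genes, which share the 2 libraries. A gene was called transcribed where its RPKM was above 0.5 in both cultures. This held for 7329 genes, 34.1% of the total, with 923 more passing in 1 culture only. A gene was called silent where both cultures had 0 reads, which held for 4221 genes, 19.7%. The 9921 genes between had reads below the threshold in at least 1 culture. The median gene stood at 0.176 RPKM in culture 1 and 0.148 in culture 2. Near the threshold, CRIPT passed with 0.500 and 0.513 RPKM and ENDOD1 with 0.628 and 0.500, whereas CCDC75 with 0.49991 and 0.663 and HYI with 0.577 and 0.49988 fell just short in 1 culture.

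**Figure D1:**
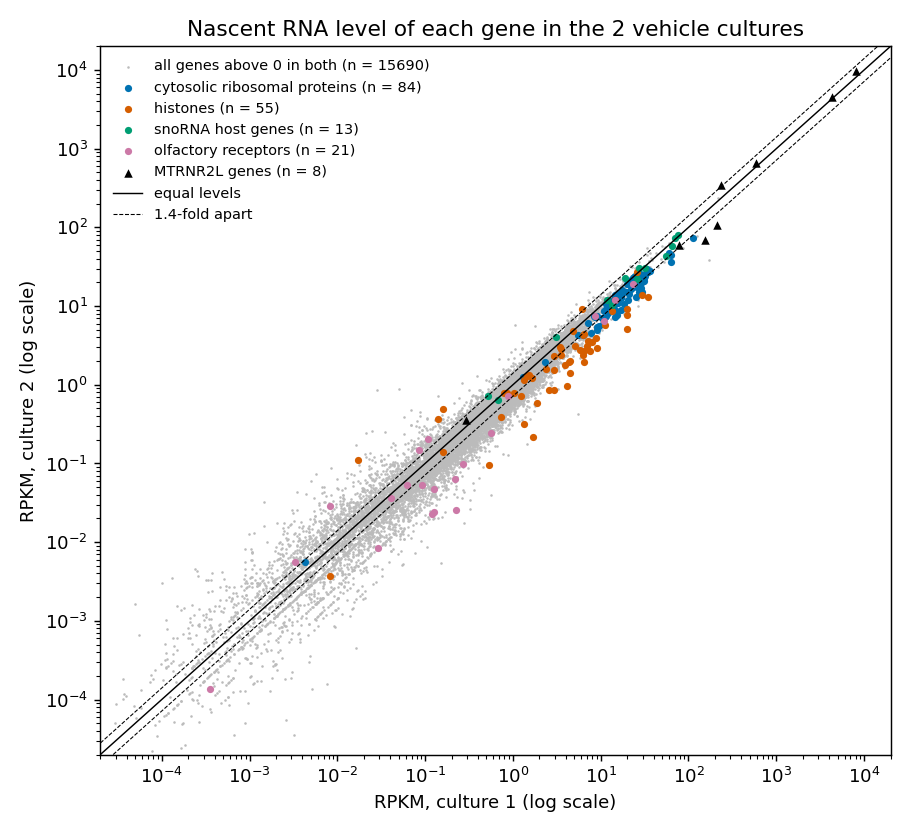
RPKM of each gene in culture 1 (horizontal, log scale) against culture 2 (vertical, log scale), for the 15690 genes with reads in both. Each point is a gene, the solid line marks equal levels and the dashed lines 1.4-fold differences. Ribosomal protein genes lie at the upper end, and most histone points lie below the line of equal levels.

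The highest values belonged to MTRNR2L2, with 8149 RPKM in culture 1 and 9753 in culture 2, and MTRNR2L8, with 4327 and 4544. These are nuclear genes that resemble the mitochondrial 16S ribosomal RNA gene, so their reads cannot be told apart here from mitochondrial RNA and the values are uncertain. The 9 MTRNR2L genes held 38.9% and 44.0% of the summed RPKM but only 2.02% and 2.17% of the reads. With them, the 100 highest genes held 49.3% and 52.8% of the summed RPKM of the cultures, and without them 17.6% and 16.4%. Of the 100 highest genes of each culture, 83 were shared.

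Apart from these copies, MALAT1 was the highest gene. This nuclear long noncoding RNA (chr11:65265233-65273939 in hg19, plus strand) gave 216 RPKM in culture 1 and 236 in culture 2, from 43963 and 83770 reads. NEAT1, the RNA scaffold of nuclear paraspeckles, stood at 30.2 and 24.4 RPKM. MIR17HG, the host of an oncogenic microRNA cluster, stood at 11.8 and 14.5. Of 17 nuclear long noncoding RNA genes, 11 were transcribed and 1, the imprinted MEG3, had no reads in either culture. RPPH1, the RNA component of ribonuclease P and a product of RNA polymerase III, gave 172 RPKM in culture 1 and 38.5 in culture 2. RPPH1 had the lowest ratio of culture 2 to culture 1, 0.224, among genes with a mean RPKM above 0.5 and at least 30 reads in all.

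Genes for the protein synthesis machinery made up much of the rest of the top. EEF1A1, the elongation factor that delivers aminoacyl-tRNA to the ribosome, stood at 123 and 77.1 RPKM. RPL21 stood at 114 and 73.8, although only 409 of its 5011 bp were its own. RPS12 stood at 60.1 and 47.9, RPL7 at 63.7 and 44.1 and RPL41 at 62.8 and 36.5. All of these were lower in culture 2. Of 89 measured cytosolic ribosomal protein genes, 83 were transcribed and 81 were among the 1074 genes with the highest mean RPKM, a cut that holds 5% of all genes. Their median was 17.0 RPKM in culture 1 and 14.1 in culture 2. The 3 without reads included RPL10L, a retrogene copy. The mitochondrial ribosomal protein genes were transcribed as regularly, in 73 of 76, but at a median of 2.35 and 2.15 RPKM, and 12 of them were in the highest 5%.

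Ribosomal protein and elongation factor messages are known to begin with a run of pyrimidines, the 5′ terminal oligopyrimidine tract, through which their translation is controlled. The sequences around the starts of RPL21, RPS12 and EEF1A1 are shown because they are the highest such genes with a RefSeq promoter entry. They run 5′ to 3′ from 40 bases before to 20 bases after the RefSeq start (GRCh38.p14), with the unbroken run of C or T at the start in capitals. RPL21 is at chr13:27251518-27251577 on the plus strand, RPS12 at chr6:132814529-132814588 on the plus strand and EEF1A1 at chr6:73521013-73521072 on the minus strand.
RPL21: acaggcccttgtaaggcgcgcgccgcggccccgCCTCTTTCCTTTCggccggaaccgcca
RPS12: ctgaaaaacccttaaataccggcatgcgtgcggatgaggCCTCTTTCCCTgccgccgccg
EEF1A1: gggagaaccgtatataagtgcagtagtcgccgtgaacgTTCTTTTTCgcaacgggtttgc

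A run of at least 8 C or T holding a base within 3 bases of the start was searched on the gene's strand in the RefSeq promoters, 1 start per gene. Such a run was in 47 of the 68 transcribed cytosolic ribosomal protein genes with an entry (69.1%). It was in 9.53% of the 27284 promoters of the table. Of the transcribed translation factor genes it was in 9 of 49 (18.4%), of the mitochondrial ribosomal protein genes in 4 of 65 (6.15%) and of the hnRNP and SR genes in 2 of 46 (4.35%). By level, the run was in 18.3% of the highest 5% of genes with an entry, a group that holds most cytosolic ribosomal protein genes. In the transcribed genes below the highest 5% it was in 9.60%. Whether the run bears on the level was not tested. A match of letters is no measure of a working site.

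Host genes of small nucleolar RNAs (snoRNAs), which carry them in their introns, had the highest median level among the classes with at least 10 measured genes. All 13 measured hosts were transcribed and 10 were in the highest 5%, with medians of 26.2 and 22.6 RPKM. SNHG1 stood at 76.6 RPKM in culture 1 and 79.1 in culture 2, GAS5 at 71.1 and 73.6, and SNHG3 at 64.3 and 57.4. None of the 13 differed 1.4-fold between the cultures. EIF4A2, a translation initiation helicase whose introns also hold snoRNAs, stood at 59.7 and 64.1, and RABGGTB, a prenyltransferase subunit gene with intronic snoRNAs, at 49.4 and 57.8. The own length of SNHG3 was 2095 of 4950 bp and that of SNHG1 3283 of 3901 bp.

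RNA-binding proteins of the nucleus followed. Of 56 hnRNP and SR splicing factor genes, 50 were transcribed and 37 were in the highest 5%. HNRNPA1, a splicing repressor, stood at 85.6 and 55.1 RPKM, on an own length of 1365 bp of 4543. HNRNPA2B1 stood at 54.3 and 56.9 and SRSF2, which promotes exon inclusion, at 42.5 and 47.3. The 3 silent members were HNRNPCL1, HNRNPKP3 and SNRPN, the last an imprinted gene of 96478 bp. Other housekeeping classes were transcribed almost throughout at lower levels. Replication proteins were transcribed in 41 of 45 genes, led by the ribonucleotide reductase subunit RRM2 at 13.9 and 12.8 RPKM and by MCM3 of the replicative helicase at 8.99 and 8.25. Proteasome subunits were transcribed in 42 of 48 genes, and the 2 silent ones were the thymus subunit PSMB11 and the immunoproteasome subunit PSMB8. Respiratory chain and ATP synthase genes were transcribed in 81 of 95, and the longest silent ones were COX7B2, COX4I2 and COX7A1, tissue-specific forms of their subunits. Glycolysis genes were transcribed in 14 of 17. Among them GAPDH stood at 26.7 RPKM in culture 1 and 11.8 in culture 2, LDHB at 14.1 and 18.5, and ENO1 at 16.2 and 14.4. HSPA8, the constitutive cytosolic chaperone, stood at 60.6 and 39.3 RPKM. The stress-inducible HSPA6 and HSPA1A were at 0, but HSPA1A has a near-identical copy, HSPA1B (0.0170 and 0.0196 RPKM), so its 0 is uncertain.

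Ranked by reads in place of RPKM, MTRNR2L2 and MTRNR2L8 again came first and MALAT1 was again near the top, but most of the other leading genes were long ones. HMGA2, an architectural chromatin factor of embryonic and tumour cells (chr12:66218240-66360071 in hg19, plus strand), took 80590 reads in culture 1 and 148058 in culture 2. Its level was 24.3 and 25.6 RPKM over 141832 bp. DCBLD2, a membrane receptor gene, took 66461 and 122818 reads, at 26.9 and 28.5 RPKM. KITLG, the ligand of the KIT receptor, took 50747 and 107953 reads, at 24.7 and 30.2 RPKM. MIR31HG, the host of microRNA 31, took 45373 and 93772 reads, at 18.7 and 22.1 RPKM. TCF7L2, the main transcription factor of the Wnt pathway in the intestine, took 47646 and 79174 reads, at 9.37 and 8.93 RPKM over 217428 bp. MED13L, a subunit of the Mediator kinase module, took 35812 and 83518, and EZR, the ezrin gene that links membrane and actin, took 34520 and 78585. HMGA2, DCBLD2 and TCF7L2 had almost the same RPKM in both cultures, and the 100 genes with most reads held 13.7% and 15.2% of all reads.

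Epithelial markers were transcribed more often than intestinal ones. Of 24 epithelial markers, 13 were transcribed (54.2%) and none was silent, against 34.1% and 19.7% of all genes. The simple epithelial keratins led, with KRT8 at 9.60 and 5.81 RPKM, KRT18 at 8.18 and 4.81 and KRT19 at 5.07 and 3.34. The adhesion molecule EPCAM stood at 3.66 and 3.06 and the tight junction scaffold TJP1 at 2.53 and 3.71. CDH1, the gene of E-cadherin, was below the threshold at 0.451 and 0.351 RPKM. The other keratins were not transcribed, and 36 of the 56 keratin genes were silent. Of 30 intestinal and colonic markers 1 was transcribed and 12 were silent. CDX2, the caudal-type factor that specifies intestinal epithelium, stood at 0.292 and 0.232, from 48 and 67 reads. Its paralog CDX1 and 11 more markers had no reads in either culture, among them the guanylate cyclase GUCY2C over 83952 bp, the stem cell genes OLFM4 and ASCL2, the carbonic anhydrases CA1 and CA4, and TFF3 of goblet cells. LGR5, the receptor that marks crypt stem cells, had 0 reads in culture 1 and 33 in culture 2, or 0.00559 RPKM.

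Few markers of other cell types passed the threshold. Of 20 fibroblast and mesenchymal markers none was transcribed and 5 were silent, COL1A2, DCN, POSTN, SNAI2 and THY1. This silent share of 25% is near the 19.7% over all genes. The highest of the 20 was ZEB1, a repressor of epithelial genes, at 0.284 and 0.307 RPKM. VIM, a gene of mesenchymal intermediate filaments, stood at 0.147 and 0.0394. None of 16 immune, 12 endothelial, 14 hepatocyte and 15 muscle markers was transcribed in both cultures. Of 14 neuronal markers 2 were, SYT1, a sensor of synaptic vesicle release, at 1.33 and 1.69 RPKM and the tubulin TUBB3 at 0.958 and 0.672. GAD1, which makes the transmitter GABA, stood at 0.421 and 0.393. The highest immune markers were CD68, a macrophage lysosomal protein gene, at 0.569 and 0.490 RPKM and the lysozyme gene LYZ at 0.494 and 0.471. CD68 passed in culture 1 only, and after TMM or median-ratio scaling it passed in both, as 1 of the 16 immune markers. Of the hepatocyte markers, 8 had 0 reads in culture 1 and at least 1 in culture 2. APOB had 0 and 117 reads, or 0.0673 RPKM in culture 2, and ALB had 0 and 19. None of the 24 HLA genes was transcribed in both cultures. HLA-E was the highest at 0.570 and 0.449 RPKM, past the threshold in culture 1 only, and HLA-B stood at 0.230 and 0.139.

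**Figure D2:**
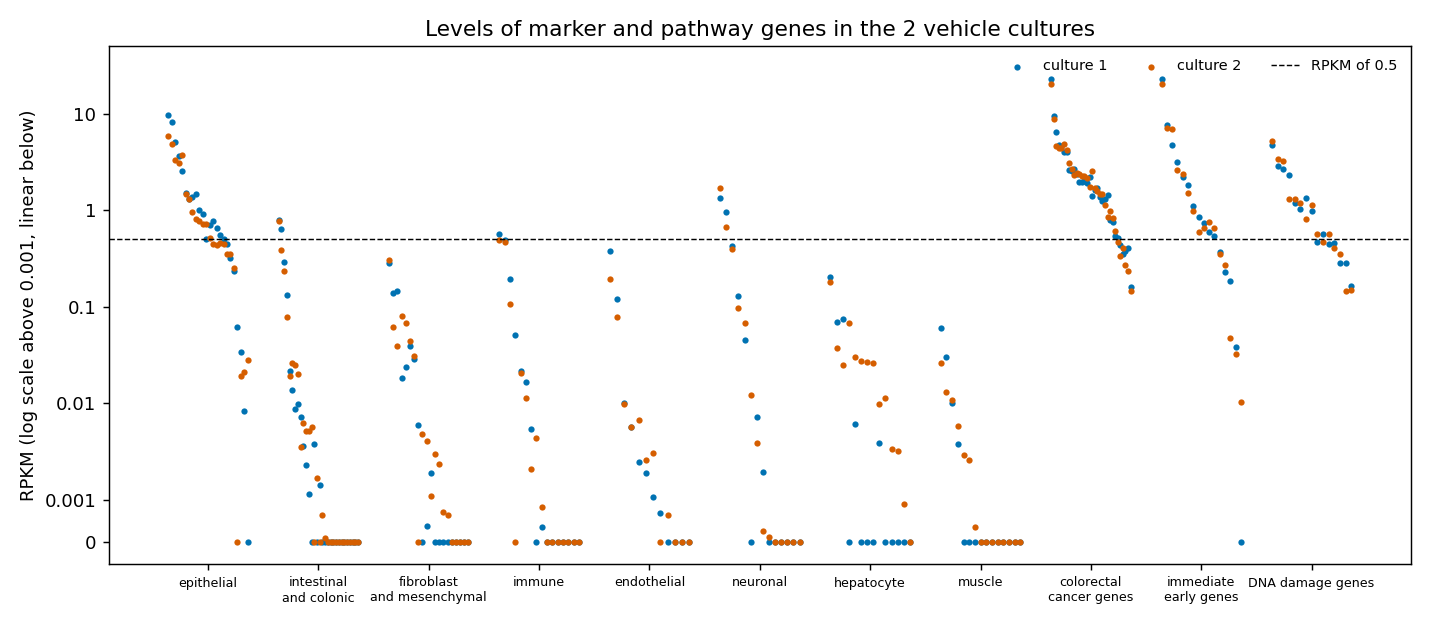
RPKM in culture 1 (blue) and culture 2 (orange) of each marker or pathway gene, ordered by mean within its list, on an axis that is logarithmic above 0.001 and linear below. Each pair of points at 1 position is a gene and the dashed line marks 0.5 RPKM. Epithelial and colorectal cancer genes reach above the line, and almost all markers of other cell types lie below it.

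Genes recurrently altered in colorectal cancer were transcribed in 26 of 32 cases (81.25%) and none was silent, against 34.1% and 19.7% of all genes. Their median own length was 56163 bp. Of all genes between 30 and 100 kb, 44.4% were transcribed and 7.72% silent, so the lack of silent members says little. MYC, the growth regulator downstream of Wnt signalling, led with 22.8 and 20.2 RPKM. CCND1, the G1 cyclin, followed TCF7L2 with 6.55 and 4.62, and CTNNB1, the gene of β-catenin, stood at 4.78 and 4.401. The TGF-β receptor gene TGFBR2 stood at 4.02 and 4.85 and its effectors SMAD3 at 3.98 and 4.21 and SMAD4 at 2.39 and 2.46. APC, a brake on Wnt signalling, stood at 0.785 and 0.976. The mismatch repair gene MSH6 was transcribed at 4.55 and 4.45 RPKM. Members below the threshold included AXIN2, a feedback inhibitor of Wnt signalling, at 0.405 and 0.234, PIK3CA at 0.350 and 0.402 and MGMT, a DNA repair gene, at 0.161 and 0.145. Levels describe transcription of the locus and not the sequence of the product.

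Immediate early genes showed a wide range. FOSL1 stood at 7.67 and 7.06 RPKM, KLF6 at 4.75 and 6.91 and EGR1 at 3.15 and 2.63, whereas FOS stood at 0.371 and 0.354 and EGR2 at 0 and 0.0103. Of 16 such genes 11 were transcribed (68.75%), against 34.1% of all genes. Of 15 genes known to be induced by DNA damage 8 were transcribed (53.3%) and none was silent. Their median own length was 11869 bp, and of all genes between 10 and 30 kb 37.2% were transcribed and 15.1% silent. MDM2, a ubiquitin ligase gene, was the highest at 4.79 and 5.20 RPKM, the death receptor gene TNFRSF10B stood at 2.90 and 3.38, and CDKN1A, the gene of the cell cycle inhibitor p21, at 1.18 and 1.32. The study's target, GSTO1, stood at 3.51 and 3.72 RPKM, and its neighbour and paralog GSTO2 at 3.81 and 3.90. Both lie on the plus strand of chromosome 10, where GSTO1 ends at 106027222 and GSTO2 starts at 106028631 in hg19. Whether the GSTO2 reads came from a start of its own was not tested.

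Silent shares were high in several gene families with narrow tissue use. The class shares are read against the 19.7% of all genes that were silent and the 34.1% that were transcribed. Length limits this reading, since 75.3% of all genes with an own length up to 1 kb were silent. Many of those short genes belong to the families named next, so this share is no separate control for them. The median own length was 948 bp for olfactory receptors, 911 bp for keratin-associated protein genes and 963 bp for type I interferons. For defensins it was 3352 bp, and between 3 and 10 kb 26.9% of all genes were silent. Of 388 olfactory receptor genes 354 were silent (91.2%), and of 48 defensin genes 44 (91.7%). Of 71 keratin-associated protein genes, which build the hair shaft, 64 were silent and none was transcribed. Of 17 type I interferon genes 14 were silent and none was transcribed. Clustered protocadherins, which give neurons their surface identity, were silent in 35 of 55 genes, with PCDHB9 alone transcribed at 0.608 and 0.552 RPKM. Cancer-testis antigen names covered 74 rows, of which 64 were silent. Of the 2 transcribed, SSX2IP is a binding partner of such an antigen rather than one itself, and MAGEB2 stood at 1.54 and 1.42 RPKM. None of the 43 GABA and glutamate receptor genes passed in both cultures, although GRIN2B, an NMDA receptor subunit of 418613 bp, stood at 0.414 and 0.601. Of 118 channel genes 36 were silent and 7 were transcribed. LINC-named noncoding RNAs were silent in 50 of 127 cases and transcribed in 13. Solute carriers were silent in 52 of 379 cases (13.7%) and transcribed in 28.2%. Zinc finger ZNF genes were silent in 38 of 525 (7.24%) and transcribed in 39.0%. The median own lengths of these 2 classes were 32613 and 19707 bp. Over all genes, 7.72% were silent between 30 and 100 kb and 15.1% between 10 and 30 kb.

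**Figure D3:**
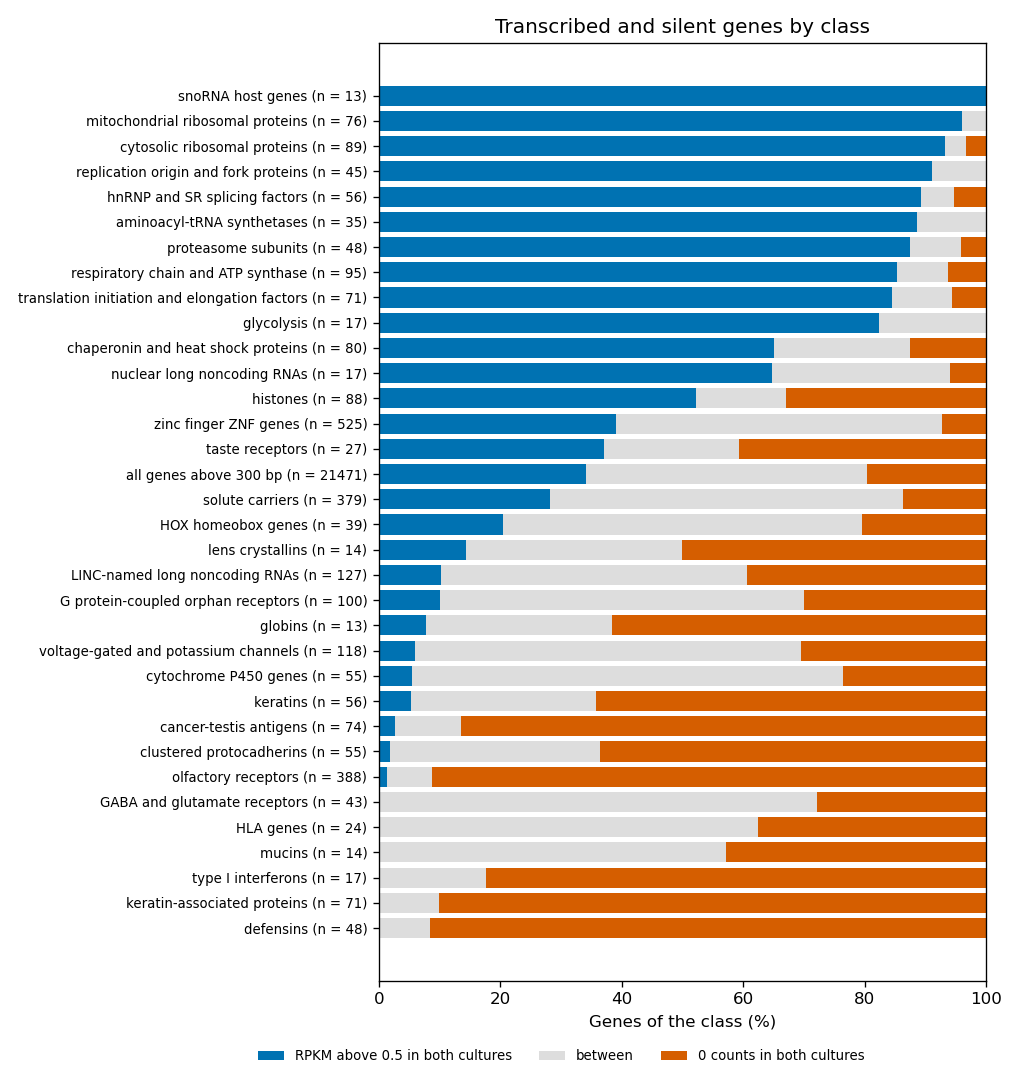
Share of each gene class (percent, horizontal) that was transcribed, between or silent in both cultures, with the number of measured genes beside each name. Classes are ordered by the transcribed share, from the snoRNA hosts with all 13 transcribed to the defensins with none, and the bar for all 21471 genes lies between.

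Of 39 HOX genes, which set position along the body axis, 8 were transcribed and 8 were silent (20.5% each). The silent share is near the 19.7% over all genes, and the transcribed share is below the 34.1% over all genes. HOXA9 was the highest at 3.58 and 2.95 RPKM, followed by HOXB6 at 3.25 and 2.37 and HOXB8 at 3.09 and 2.21. The longest silent ones were HOXC11, HOXD10 and HOXD13. HOXB6 and HOXB8 overlap other genes on the same strand, so their shares of the reads are less certain.

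Of the 5 transcribed olfactory receptor genes, 4 lay in 1 place. OR51B5 (chr11:5362113-5526882 in hg19, minus strand), annotated over 164770 bp, gave 88952 reads in culture 1 and 128456 in culture 2, which is 23.2 and 19.2 RPKM and the fourth highest number of reads summed over both cultures. OR51I1, on the same strand inside it, stood at a mean of 13.2 ± 1.75 RPKM (SD, n = 2). Of the 5 olfactory receptor genes inside it on the opposite strand, OR51B6, OR51M1, OR51Q1 and OR51I2 had 0 reads in both cultures and OR52D1 had 3 and 1. Downstream on the minus strand the levels were lower, and lowest farthest away. OR51B2, 17.1 kb beyond the 3′ end of OR51B5, stood at 8.51 and 7.50 RPKM and OR51B4, at 39.4 kb, at 10.9 and 6.37. The embryonic globin HBE1, at 71.6 kb, stood at 2.158 and 1.65, and the fetal globin HBG2, at 86.9 kb, at 0.726 and 0.354. The next genes, HBG1 at 91.8 kb and HBB at 114.6 kb, had at most 1 read. Outside this block of the chromosome, 338 of 365 olfactory receptor genes were silent and 1, OR7D2, was transcribed at 0.875 and 0.730 RPKM. The reads do not say whether each receptor or globin gene in the block had a start of its own or lay within 1 long transcript.

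**Figure D4:**
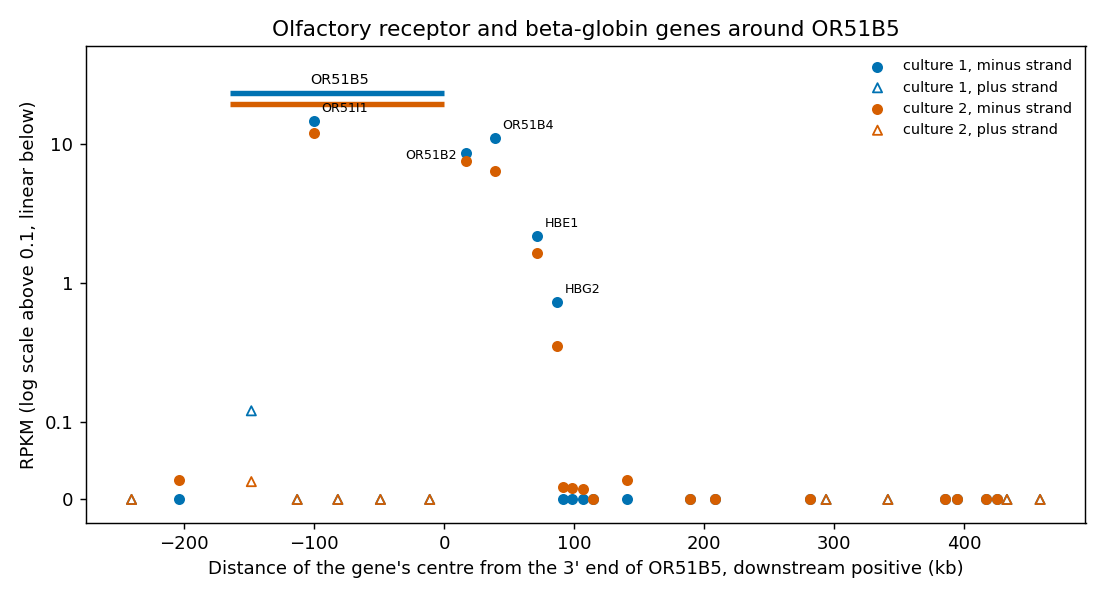
RPKM of the olfactory receptor and globin genes around OR51B5 (log scale above 0.1, linear below) against the distance in kb of each gene's centre from the 3′ end of OR51B5, downstream positive. Filled circles are minus-strand genes, open triangles plus-strand genes, and the bars show OR51B5 itself in culture 1 (blue) and culture 2 (orange). Minus-strand genes from OR51I1 to HBG2 lie above 0.3 RPKM, while plus-strand genes over the same stretch lie at or near 0.

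Some bitter taste receptors also lay within a transcribed locus. Of 24 TAS2R genes, 7 lie inside PRH1-PRR4 on its strand, a locus of 197971 bp at 1.85 and 1.94 RPKM, and 6 of those 7 were transcribed. Among them TAS2R30 stood at 3.50 and 3.28 and TAS2R19 at 3.03 and 2.89. Of the 17 elsewhere 4 were transcribed and 9 were silent.

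Several silent genes were very long, where a single read in many kilobases would have ended the call. Among genes whose name is on 1 row, CLSTN2, a synaptic calsyntenin gene of 632893 bp (chr3:139654027-140286919 in hg19, plus strand), had 0 reads in both cultures. Counts of 0 allow up to 3 reads, which is 0.000203 RPKM in culture 1 and 0.000116 in culture 2 over this length. UNC13C, a presynaptic priming factor gene of 615706 bp, SEMA6D, a semaphorin gene of 590018 bp, CADPS, a vesicle priming factor gene of 477044 bp, and GRIN2A, an NMDA receptor subunit gene of 429347 bp, were at 0 too, as were KCNH8 and KCNT2 of the potassium channels. In all, 107 silent genes had an own length above 100 kb. Of the 98 of these with a name on 1 row, 42 had no reads on the antisense strand either. TRPC5 (127 and 232 antisense reads), GRM3 (260 and 508) and GLRA2 (223 and 249) had their sense strand at 0 while the opposite strand was read. These intervals cover counting error only.

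The median silent gene had an own length of 4807 bp, where 3 reads are 0.0267 RPKM in culture 1 and 0.0153 in culture 2. For 4088 of the 4221 silent genes, 3 reads would lie below 0.5 RPKM in both cultures, so the depth could have shown a level at the threshold. The others had an own length below 300 bp, and their silence was not resolved at this depth. Rows whose gene name occurs more than once in the annotation were silent in 319 of 365 cases (87.4%), against 18.5% of the rows with a single name. Such rows are duplicated genes, and their silence is uncertain.

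Silent genes had promoters of more than 1 kind, and 3 examples are shown because they represent a gene with high reads and 2 kinds of silent gene. They run from 150 bases before to 20 after the RefSeq start (GRCh38.p14), 5′ to 3′, with CpG dinucleotides, the sites of DNA methylation, in capitals. EZR at chr6:158818216-158818385 (minus strand) and the silent CLSTN2 at chr3:139935035-139935204 (plus strand) hold 26 and 23 of them, and the silent hair gene KRTAP24-1 at chr21:30282931-30283100 (minus strand) holds 3.
EZR: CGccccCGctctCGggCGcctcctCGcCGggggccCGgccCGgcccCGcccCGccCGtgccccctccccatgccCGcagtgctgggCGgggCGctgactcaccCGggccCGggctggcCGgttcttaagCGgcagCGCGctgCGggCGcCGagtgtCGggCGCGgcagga
CLSTN2: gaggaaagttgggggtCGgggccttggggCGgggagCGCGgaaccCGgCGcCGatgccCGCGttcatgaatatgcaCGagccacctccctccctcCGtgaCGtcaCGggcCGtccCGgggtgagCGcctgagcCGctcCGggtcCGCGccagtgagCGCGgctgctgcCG
KRTAP24-1: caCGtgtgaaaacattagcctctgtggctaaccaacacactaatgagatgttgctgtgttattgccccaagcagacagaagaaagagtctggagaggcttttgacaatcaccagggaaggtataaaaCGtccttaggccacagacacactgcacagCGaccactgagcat

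Among the 5072 transcribed genes below the highest 5% with an entry, the median promoter of 300 bases held 27 CpG, and observed over expected CpG was above 0.6 in 89.7%. Among the 53 silent keratin-associated protein genes with an entry, the median was 3 CpG and 1.89% passed 0.6. Of the 354 silent olfactory receptor genes 277 had an entry (78.2%), with a median of 1 CpG and 1.81% past 0.6. Among the 28 silent channel genes with an entry, the median was 9.5 CpG and 25% passed 0.6. The share over all 27284 promoters was 48.8%. For the silent genes as a whole this comparison is void, since only 58.7% of them had a promoter entry, and it is void for the silent genes above 100 kb, with entries for 65.4%. The low values are thus shown for these families alone, and the silent CLSTN2 was close to EZR. The TATAAA box, searched in the 40 bases before the start on the gene's strand, was in 25 of the 53 silent keratin-associated protein genes (47.2%) and in 22 of the 38 transcribed histone genes (57.9%). It was in 7 of the 17 silent histone genes with an entry (41.2%), but these are only 58.6% of the silent ones, so transcribed and silent histones were not compared. The box was in 2.71% of all promoters and in 1.24% of the transcribed genes below the highest 5%. Of the 277 silent olfactory receptor genes it was in 8 (2.89%), and of the 28 silent channel genes in 2 (7.14%). The promoter of HIST1H4B (RefSeq H4C2) at chr6:26027264-26027323, minus strand, from 40 bases before to 20 after the start, shows the box in capitals.
HIST1H4B: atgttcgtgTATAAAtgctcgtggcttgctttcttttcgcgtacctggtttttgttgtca

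Histone genes were split. Of 88 measured, 46 were transcribed and 29 silent, and 24 were in the highest 5%. The H4 gene HIST1H4B stood at 25.7 and 27.3 RPKM, the linker histone gene HIST1H1C at 34.8 and 13.2 and the H4 gene HIST1H4E at 29.9 and 13.8. Histones also differed between the cultures. Of the 49 with a mean RPKM above 0.5, 35 were at least 1.4-fold lower in culture 2 and 1 was higher, with a median log2 ratio of -0.99. Over all 7825 genes with a mean RPKM above 0.5, 16.3% were at least 1.4-fold lower in culture 2 and 2.84% at least 1.4-fold higher. Of the genes past 1.4-fold, 14.8% were thus higher in culture 2, against 32.0% after TMM scaling and 37.4% after median-ratio scaling, both of which raise every ratio. The lowest histone ratios were those of HIST1H2AJ, with 4.15 RPKM in culture 1 and 0.956 in culture 2, and HIST1H1E, with 20.04 and 5.04.

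The difference between the cultures moved with gene length. Of the 117 compared genes with an own length up to 1 kb, 66 were at least 1.4-fold lower in culture 2 (56.4%), and their median log2 ratio was -0.71. In the class from 30 to 100 kb the share was 5.37% and the median 0.03, and above 300 kb it was 1 of 133 genes with a median of 0.14. The median histone gene had an own length of 471 bp and the median cytosolic ribosomal protein gene 4450 bp, so class and length cannot be told apart in these ratios. The cause of this trend was not tested. Gene length also went with the calls themselves. The transcribed share rose from 10.95% up to 1 kb to 44.4% between 30 and 100 kb and fell to 17.9% above 300 kb, while the silent share fell from 75.3% to 2.56%.

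**Figure D5:**
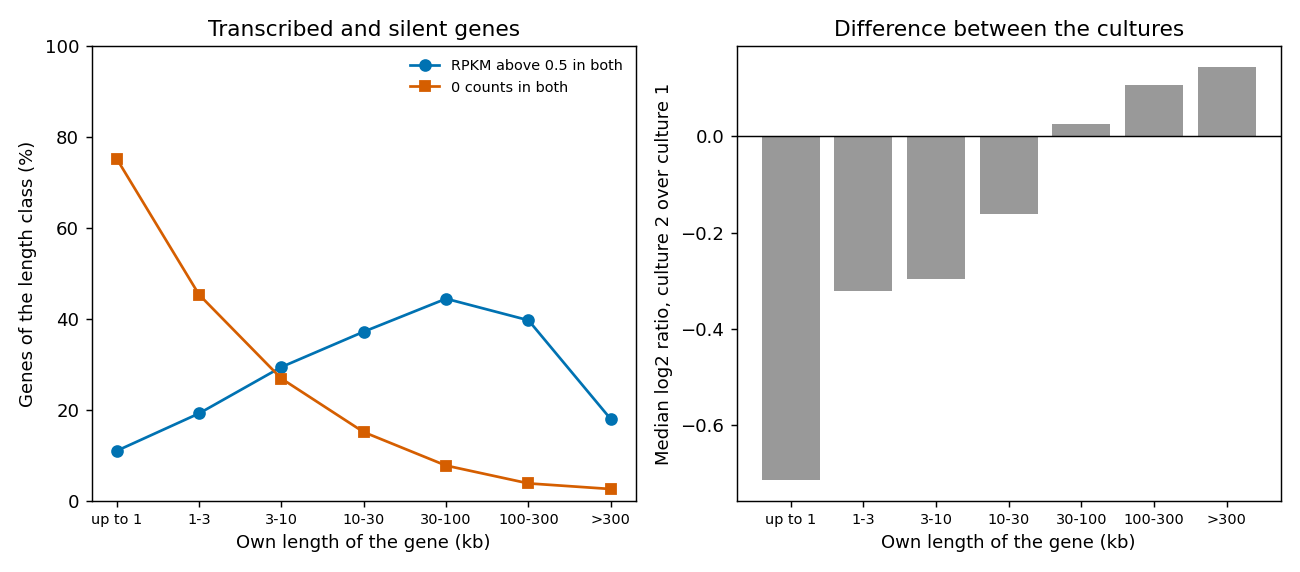
Left, percent of genes transcribed (circles) or silent (squares) in both cultures by own length in kb. Right, bars of the median log2 ratio of culture 2 over culture 1 for genes with a mean RPKM above 0.5, by own length, with 0 marking equal levels. Short genes were mostly silent and were lower in culture 2, and the ratio rises with length.

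Some genes longer than 10 kb also differed. CYP24A1, the hydroxylase that inactivates vitamin D, stood at 1.07 RPKM in culture 1 and 5.71 in culture 2, a ratio of 5.34, from 513 and 4782 reads. SEMA3C, a secreted semaphorin gene, stood at 0.389 and 1.31, WNT16, a Wnt ligand gene, at 1.76 and 5.61, THBS1, the thrombospondin gene, at 0.694 and 2.13, and IL18, a cytokine gene, at 1.06 and 2.81. In the other direction FGF18, a growth factor gene of 37964 bp, stood at 1.58 and 0.364. For these genes a basal level is known only to within the range of both cultures.

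Among the autosomes and the X chromosome, the transcribed share was highest on chromosome 13, with 150 of 356 genes (42.1%), and lowest on the X chromosome, with 181 of 892 (20.3%), and on chromosome 19, with 366 of 1468 (24.9%). Chromosome 11 had 371 silent genes of 1342, of which all but 220 were olfactory receptors. By RefSeq type, matched by symbol for 20060 of the 21471 rows, 37.5% of 18610 protein-coding genes were transcribed, 13.9% of 656 long noncoding RNA genes and 10.3% of 726 pseudogenes. The silent shares were 17.5%, 34.1% and 36.4%. The pseudogene HSP90AB2P, a processed copy of a chaperone gene, stood at 78.6 and 81.8 RPKM, and reads of such copies cannot be told apart with certainty from those of the parent gene.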

How the data were processed

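The 2 libraries were Bru-seq libraries of vehicle-treated HCT116 cells. The authors deposited 1 text file per library on the hg19 build, with a row for each gene and strand. Per the submitters' processing notes the tools were CASAVA 1.8.2, Bowtie 0.12.8, TopHat 1.4.1 and bedtools 2.16.2. Each deposited file holds expected counts that cover introns and exons alike, without normalization and partly fractional (within 0.001 of whole for 71.1% and 62.0% of rows). The authors made the RPKM values by dividing these counts by the gene length left after regions shared with other genes and by the library's reads, 23388425 and 40788844 as recovered from the files. Antisense rows held 3.12% and 2.85% of the gene reads, and 1.90% and 1.96% of reads lay in regions given to no single gene and were left out.

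Calls, class counts and figures were made in Python 3.11.15 with numpy, pandas, scipy and matplotlib, and TMM (edgeR 4.0.16) and median-ratio factors (DESeq2 1.42.0, R 4.3.3) served as alternative scalings. Named genes were the 25 highest with at least 100 counts in each culture and the leading genes by counts summed over both cultures. The 15 longest silent genes and the 10 largest ratios between cultures in each direction (at least 30 counts) were also taken. So were genes next to a threshold, members of the marker and pathway lists and the highest and longest silent members of each class. The OR51 block, OR7D2, the TAS2R genes in PRH1-PRR4, HSPA1A and HSPA1B, the antisense counts and RefSeq types were added after their values were seen. The members and lists were chosen with earlier results of these data known. Promoters were the RefSeq entry of each symbol, at its most upstream start. The calling steps were run on simulated counts with known silent and changed genes. The simulated spread was counting error only, so this checks the steps and says nothing of the calls in these cultures. Some members of the lists are not reported here.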

Additional observations from a re-analysis of the deposited data

How the results depend on the processing

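The count of 7329 transcribed genes was 11276 at an RPKM threshold of 0.1 and 4807 at a threshold of 1, and stayed within 1.5-fold under the other alternatives run, from 7489 to 8092 with 1 culture left out. Silent genes numbered 4583 to 5419 with 1 culture left out and 5871 when up to 3 counts were allowed. The mean share of summed RPKM in the 100 highest genes was 51.0%, 14.5% of counts in place of RPKM, and 17.0% without the MTRNR2L genes, an alternative chosen after seeing the data, with 49.3% to 52.8% in single cultures. The 1497 genes differing 1.4-fold became 837 at a mean RPKM above 1 and 6940 without an RPKM filter.

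Of the 45 classes, 43 or more stayed on their side of the share over all genes under every alternative run. Taste receptors, above it in the report, crossed to below it at 48.1% (threshold of 0.1), 28.6% (size above 1000 bp), 22.2% (no same-strand overlap), 33.3% (own length of at least 1000 bp and a single name, chosen after seeing the data) and 37.0% (without culture 2). ZNF genes crossed at 20.4% (threshold of 1). For silence, HOX genes crossed at 23.1% (up to 3 counts) and at 20.5% (culture 2 thinned, or no size filter), with 20.5% to 25.6% in single cultures, hepatocyte markers at 35.7% (up to 3 counts) and 21.4% (thinned), with 7.14% to 64.3% in single cultures, and histones at 15.8% (own length of at least 1000 bp). No paired analysis was possible because 1 group was used and no test was run. The depth of culture 1 limits the calls of silence for short genes.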
